A study of Homo sapiens with 6 samples.

Results

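The collagen genes were followed in A549 cells, a human cell line that was established from a tumour of the lung, an adenocarcinoma. Members were the protein-coding genes whose symbol has the form COL, a number, A and a number. There were 44 of them among 19799 protein-coding genes and 58174 listed genes. According to the type of collagen they encode, 11 were grouped as fibrillar, 6 as type IV, the collagen of basement membranes, and 27 as other. Parental A549 cells (Ctrl) were compared with A549 cells lacking the MIR21 gene, the source of miR-21-5p, after CRISPR/Cas9 deletion (MIR21-KO). Each group comprised 3 polyA-selected RNA-seq libraries of cells harvested 48 h after seeding. MIR21-KO cells had been grown from single sorted cells transfected with Cas9 and a pair of guide RNA plasmids, whereas Ctrl cells were parental cells. How many clones the MIR21-KO libraries represent is not stated, and differences between clones and effects of the deletion cannot be told apart. The study describes the samples of a group as independent.

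Collagens are trimeric proteins of the extracellular matrix. Chains are hydroxylated and folded into a triple helix in the endoplasmic reticulum, secreted through large transport carriers, trimmed at their ends and then cross-linked by lysyl oxidases. Fibrillar collagens such as types I, III and V form the rope-like fibrils of connective tissue, in which type V sits at the core and limits fibril width. Type IV chains form the sheet-like network of the basement membrane that underlies epithelia. Type VI forms beaded microfibrils, type VII anchors the basement membrane to the stroma, and FACIT collagens (fibril-associated collagens with interrupted triple helices) decorate fibrils. The type IV genes lie in head-to-head pairs that are transcribed away from a shared start region, and the miR-29 family is known as a repressor of collagen mRNAs.

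Libraries held 10631667 to 14345209 reads assigned to genes, and a single read per kb of gene corresponded to 0.0731 to 0.0930 FPKM (fragments scaled to gene length and library size). Over the tested genes, Pearson's r of the log2 values was at least 0.933 within a group and at most 0.912 for libraries of different groups. MIR21 itself was listed at 0 FPKM in all 6 libraries. Mature miRNAs are not captured by polyA selection, so this does not check the labels. Of the 44 members, 17 had a mean of at least 0.5 FPKM and were tested, 16 had reads below that level, and 11 were listed at 0 in every library. Those 17 were tested together with all other genes above the filter, 16006 in total, by limma on log2(FPKM + 0.1). Genes were called at an adjusted p under 0.01. Fold changes are MIR21-KO over Ctrl on this scale, which understates the change of genes near 0.

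The start regions of the type IV genes are shown first because these genes sit in pairs and were the collagens of highest summed level. The windows run from 250 bases before to 50 bases after each gene's start, 5' to 3' on the strand of the gene (RefSeq, GRCh38.p14). Capitals mark CCAAT (the CCAAT box) and GGGCGG (the GC box) or their reverse complements.
COL4A1, chr13:110307108-110307407, minus strand: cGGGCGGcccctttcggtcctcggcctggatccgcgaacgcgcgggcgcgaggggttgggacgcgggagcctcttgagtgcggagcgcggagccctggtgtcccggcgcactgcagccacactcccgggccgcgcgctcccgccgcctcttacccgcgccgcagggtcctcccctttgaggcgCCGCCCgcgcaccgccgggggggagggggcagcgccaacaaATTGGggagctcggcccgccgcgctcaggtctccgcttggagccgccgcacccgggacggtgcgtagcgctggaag
COL4A2, chr13:110307034-110307333, plus strand: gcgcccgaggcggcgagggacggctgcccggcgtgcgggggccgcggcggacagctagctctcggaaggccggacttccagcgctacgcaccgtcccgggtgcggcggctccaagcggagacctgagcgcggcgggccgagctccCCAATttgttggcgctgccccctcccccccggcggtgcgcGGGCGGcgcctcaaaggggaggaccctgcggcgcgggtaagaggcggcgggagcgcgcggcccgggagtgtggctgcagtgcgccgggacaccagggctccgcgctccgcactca
COL4A5, chrX:108439588-108439887, plus strand: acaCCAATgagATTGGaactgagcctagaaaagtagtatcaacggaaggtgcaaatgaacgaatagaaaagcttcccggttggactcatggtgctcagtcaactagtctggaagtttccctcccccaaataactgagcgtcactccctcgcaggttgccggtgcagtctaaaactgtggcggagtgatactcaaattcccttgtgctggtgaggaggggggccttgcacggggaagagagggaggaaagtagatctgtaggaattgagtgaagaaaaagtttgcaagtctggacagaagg
COL4A6, chrX:108439409-108439708, minus strand: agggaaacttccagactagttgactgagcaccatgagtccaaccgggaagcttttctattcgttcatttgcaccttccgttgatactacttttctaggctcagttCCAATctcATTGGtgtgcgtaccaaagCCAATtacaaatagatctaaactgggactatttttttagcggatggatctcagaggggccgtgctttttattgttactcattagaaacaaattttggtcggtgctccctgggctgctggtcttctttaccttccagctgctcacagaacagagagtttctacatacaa
The COL4A1 and COL4A2 windows share 226 of their 300 bases, and the starts lie 127 bases apart. COL4A5 and COL4A6 are divergent as well, with starts 380 bases apart and 121 bases shared. A second COL4A6 start lies 1416 bases from that of COL4A5. In the COL4A1 and COL4A2 pair the letters include 1 CCAAT box and GC boxes, whereas the COL4A5 and COL4A6 windows shown hold CCAAT boxes and no GC box. A window was found for 32 of the 44 members. Several genes have more than 1 start, which gave 44 windows. CCAAT occurred on either strand in 14 of these 44 windows (31.8%), against 34.6% of 35116 windows over all genes, and GGGCGG in 24 (54.5%), against 45.0%. TATAAA (the TATA box) was present in 8 (18.2%), against 11.5%, and TGANTCA (the AP-1 motif) in 1 (2.27%), against 7.71%. A match of letters is a description and not evidence that a factor binds.

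The sequences of miR-21-5p, of let-7a-5p and of the miR-29 family are shown because these miRNAs were searched for in the collagen 3' UTRs. Capitals mark the seed, bases 2 to 8, which is identical in the miR-29 members.
hsa-miR-21-5p: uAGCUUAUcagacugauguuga
hsa-let-7a-5p: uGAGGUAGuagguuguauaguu
hsa-miR-29a-3p: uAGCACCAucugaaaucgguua
hsa-miR-29b-3p: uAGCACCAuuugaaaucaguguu
hsa-miR-29c-3p: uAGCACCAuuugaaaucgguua

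Upon MIR21 deletion, 9 of the 17 tested collagen genes rose and none fell. The rises were found in all 4 tested type IV genes (COL4A1, COL4A2, COL4A5 and COL4A6), in both tested type V chains (COL5A1 and COL5A2), in both tested type VI chains (COL6A1 and COL6A2) and in COL7A1. Of these, 6 rose at least 2-fold. In comparison, 7.66% of all tested genes were called higher and 8.38% lower. At an unadjusted p under 0.05 by limma, 13 members were higher and 1, COL12A1, was lower. The share of all tested genes at this unadjusted threshold is not given here, so these counts have no background. With voom, limma's weighted fit of the recovered reads, 11 were called higher and 1 lower. Over all 16006 tested genes, voom called 1678 higher (10.5%) and 1818 lower. Without MIR21-KO replicate 2 only 5 members were called higher, in a fit that called 768 genes in all instead of 2568. The median log2 fold change of the tested members was 0.87, compared with -0.02 over all tested genes, and 16 of the 17 values were positive. All MIR21-KO libraries exceeded all Ctrl libraries for 14 members, and the reverse held for 1. The corresponding shares over all tested genes were 22.8% and 25.2%. COL17A1 passed the filter only through its level in MIR21-KO cells, so it had to be higher there. In bulk RNA a larger share of cells that express a gene and more mRNA per cell cannot be told apart.

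**Figure D1:**
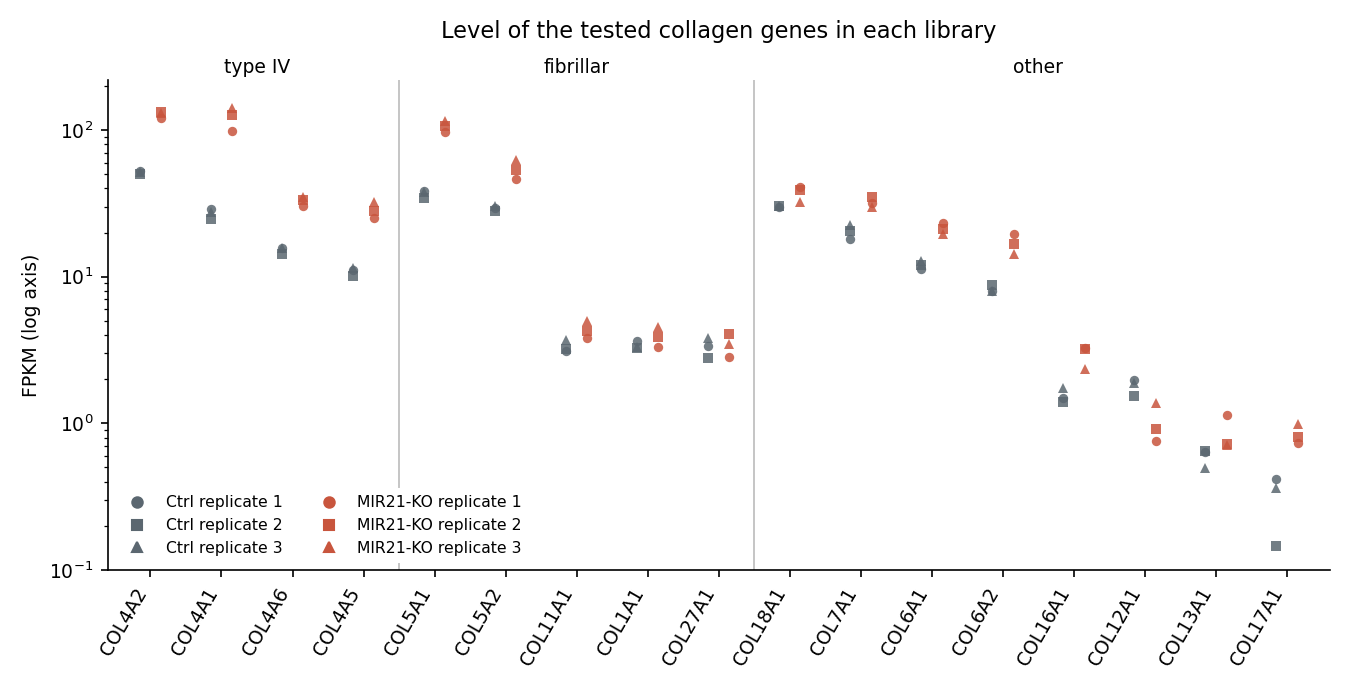
FPKM of the 17 tested collagen genes (log axis) in each of the 6 libraries, grouped by collagen class, with Ctrl in grey, MIR21-KO in red and 1 symbol per replicate. For the 4 type IV genes and both type V chains all red points lie above all grey points, whereas the groups overlap for COL1A1 and COL27A1.

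The type IV genes were considered first. COL4A1 (ENSG00000187498, chr13:110148963-110307233, minus strand) encodes a chain of the most widespread basement membrane network. Its level was 29.04, 24.9 and 27.7 FPKM in Ctrl replicates 1 to 3 and 99.3, 127.7 and 141.3 FPKM in MIR21-KO replicates 1 to 3. The lowest MIR21-KO library was thus far above the highest Ctrl library, although the spread was wider in MIR21-KO cells, with 122.8 ± 21.5 against 27.2 ± 2.11 FPKM (SD, n = 3 each). The log2 fold change was 2.16 ± 0.141 (SE), a 4.46-fold rise and the largest of the tested members (limma, adjusted p = 0.000185).

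COL4A2 (ENSG00000134871, chr13:110305812-110513209, plus strand) encodes the partner chain of COL4A1. Ctrl libraries held 52.4, 50.03 and 52.0 FPKM, and MIR21-KO libraries 120.8, 133.8 and 130.3 FPKM. The groups were far apart compared with the spread within each. COL4A2 rose 2.49-fold (log2 1.32 ± 0.075, adjusted p = 0.000108).

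COL4A5 and COL4A6 encode the chains of another type IV network, found beneath some epithelia. COL4A5 (ENSG00000188153, chrX:108439844-108697545, plus strand) was measured at 11.2, 10.2 and 11.5 FPKM in Ctrl and at 25.1, 28.2 and 32.2 FPKM in MIR21-KO cells, a 2.58-fold rise (log2 1.37 ± 0.109, adjusted p = 0.000350). For COL4A6 (ENSG00000197565, chrX:108155607-108439497, minus strand) the values were 15.6, 14.4 and 15.6 FPKM in Ctrl and 30.1, 33.2 and 35.1 FPKM in MIR21-KO cells. It rose 2.15-fold (log2 1.10 ± 0.083, adjusted p = 0.000277). In both genes the lowest MIR21-KO library lay well above the highest Ctrl library. The remaining type IV genes, COL4A3 and COL4A4, encode chains of the mature kidney and lung network and reached at most 0.143 FPKM in any library. All 4 tested type IV genes were called under each of the 20 alternative analyses, with log2 fold changes of 2.05 to 2.30 for COL4A1, 1.198 to 1.36 for COL4A2, 1.27 to 1.45 for COL4A5 and 1.04 to 1.16 for COL4A6.

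COL4A1 and COL4A2 overlap on opposite strands where they begin, and COL4A2 also holds antisense genes. COL4A2-AS1, the most abundant of these, had 8.87, 12.1 and 7.85 FPKM in Ctrl and 14.3, 18.8 and 22.8 FPKM in MIR21-KO libraries, with no overlap between groups (log2 0.95, limma adjusted p = 0.0168, not called). Libraries were strand-specific, but whether counting used the strand is not given in the sources used here, so antisense reads cannot be told apart with certainty. COL4A2-AS1 gathered 578 reads over the 6 libraries, compared with 59981 for COL4A2. Among other tested genes within 1 Mb of a called member, the median log2 fold change lay between -0.21 around COL5A2 and 0.13 around COL4A5 and COL6A1.

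Among the fibrillar collagens, 2 of the 5 tested genes rose. COL5A1 (ENSG00000130635, chr9:134641774-134844843) and COL5A2 (ENSG00000204262, chr2:189031896-189225312) encode the type V chains that initiate fibrils. COL5A1 was present at 38.3, 34.5 and 38.0 FPKM in Ctrl and at 97.6, 107.4 and 114.5 FPKM in MIR21-KO libraries. This 2.88-fold rise (log2 1.52 ± 0.089, adjusted p = 0.000122) was also called under each of the 20 alternatives. COL5A2 showed 29.4, 28.0 and 30.3 FPKM in Ctrl and 46.0, 53.2 and 62.9 FPKM in MIR21-KO cells. Its groups did not overlap either, and it rose 1.83-fold (log2 0.87 ± 0.120, adjusted p = 0.00266). The call of COL5A2 was lost when any Ctrl library or MIR21-KO replicate 2 was left out, with limma adjusted p of 0.0146 to 0.0173. It was also lost with the replicate number as a block, and so held in 15 of the 20 alternatives.

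The other fibrillar genes were expressed at low levels. COL11A1, a type XI chain that can substitute in type V fibrils, was at 3.14, 3.23 and 3.69 FPKM in Ctrl and at 3.82, 4.26 and 5.01 FPKM in MIR21-KO libraries (log2 0.36 ± 0.133, adjusted p = 0.0803). The groups were just apart, but the difference did not pass the threshold. COL1A1, which encodes the main chain of type I collagen, had 3.62, 3.28 and 3.33 FPKM in Ctrl and 3.33, 3.89 and 4.51 FPKM in MIR21-KO libraries, and the groups overlapped (log2 0.18 ± 0.134, adjusted p = 0.334). Its partner COL1A2 was listed at 0 in every library. COL27A1 ranged from 2.79 to 3.81 FPKM in Ctrl and from 2.82 to 4.07 FPKM in MIR21-KO libraries (log2 0.05 ± 0.176, adjusted p = 0.866), and the sign of its small difference depended on the analysis. COL3A1, the main chain of type III collagen, was below the filter. It had 5, 14 and 8 reads in Ctrl and 55, 45 and 56 reads in MIR21-KO libraries, that is 0.0577 to 0.191 and 0.540 to 0.634 FPKM. Without a filter its log2 fold change was 1.75 with an adjusted p of 0.0167 by limma.

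**Figure D2:**
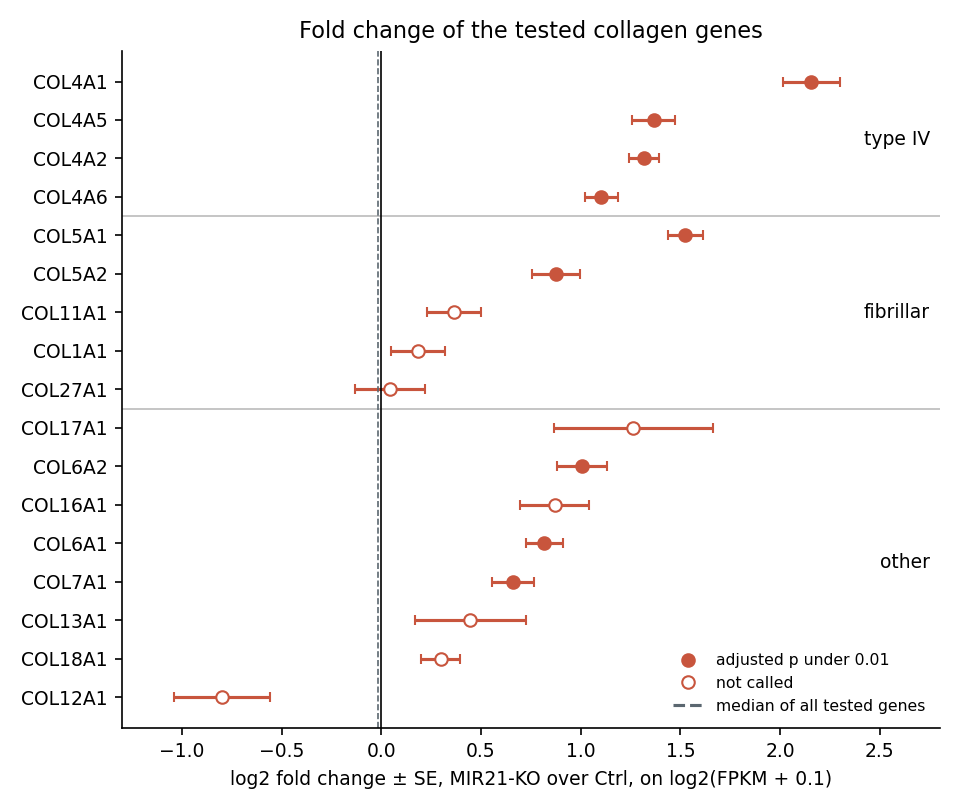
Log2 fold change of the 17 tested collagen genes with its SE (bars), MIR21-KO over Ctrl with 3 libraries each, sorted by class. Filled points passed an adjusted p of 0.01 by limma (9 genes, all above 0), open points did not, and COL12A1 at -0.80 is the only value below 0.

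In the class of other collagens, 3 of 8 tested genes rose. COL6A1 (ENSG00000142156, chr21:45981737-46005050) and COL6A2 (ENSG00000142173, chr21:46098097-46132849) are neighbours that encode chains of the beaded type VI microfibril. COL6A1 was measured at 11.3, 12.1 and 12.7 FPKM in Ctrl and at 23.4, 21.02 and 19.5 FPKM in MIR21-KO libraries, a 1.76-fold rise (log2 0.82 ± 0.092, adjusted p = 0.00128). COL6A2 had 8.01, 8.80 and 8.02 FPKM in Ctrl and 19.6, 16.8 and 14.2 FPKM in MIR21-KO libraries, a 2.01-fold rise (log2 1.01 ± 0.125, adjusted p = 0.00186). Neither gene overlapped between groups. COL6A3, the third chain of the classical type VI trimer, reached at most 0.0550 FPKM. The call of COL6A1 was lost with the replicate number as a block (limma, adjusted p = 0.0139) and without MIR21-KO replicate 2 (0.0106). That of COL6A2 was lost without MIR21-KO replicate 2, Ctrl replicate 1 or Ctrl replicate 3 (limma, adjusted p of 0.0124 to 0.0137).

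COL7A1 (ENSG00000114270, chr3:48564073-48595267) encodes the anchoring fibril collagen. Levels were 18.2, 20.4 and 22.5 FPKM in Ctrl and 31.6, 35.1 and 29.8 FPKM in MIR21-KO cells. Although the groups were clearly apart, the spread within Ctrl was wider than for the type IV genes, and the rise was 1.58-fold (log2 0.66 ± 0.105, adjusted p = 0.00459). This call was the least stable of the 9: it held in 12 of 20 alternatives and was lost without any 1 of the Ctrl libraries or without MIR21-KO replicate 2, with limma adjusted p of 0.0123 to 0.0253.

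COL18A1, a basement membrane proteoglycan whose C-terminal fragment is endostatin, had about the same FPKM in Ctrl as COL5A2. Its values were 30.03, 30.5 and 30.3 FPKM in Ctrl and 40.8, 39.0 and 32.5 FPKM in MIR21-KO libraries (log2 0.30 ± 0.098, adjusted p = 0.0583). MIR21-KO replicate 3 was closest to the Ctrl range, and without it COL18A1 was called (log2 0.40, limma adjusted p = 0.00328). COL16A1, a FACIT collagen, had 1.49, 1.40 and 1.74 FPKM in Ctrl and 3.25, 3.20 and 2.33 FPKM in MIR21-KO libraries (log2 0.87 ± 0.174, adjusted p = 0.0107). It lay just outside the threshold and was called in 9 of 20 alternatives.

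COL12A1 differed from the remaining tested members in sign. This large FACIT collagen was at 1.99, 1.54 and 1.87 FPKM in Ctrl and at 0.753, 0.916 and 1.38 FPKM in MIR21-KO libraries. All MIR21-KO values were below all Ctrl values, but the log2 fold change of -0.80 ± 0.242 did not pass the threshold (adjusted p = 0.0453). Without MIR21-KO replicate 3, the library nearest to Ctrl, it was -1.02 with a limma adjusted p of 0.00975, and with voom COL12A1 was likewise called lower. The transmembrane collagens COL13A1 and COL17A1 were near the filter. COL13A1 had 0.495 to 0.646 FPKM in Ctrl and 0.709 to 1.15 FPKM in MIR21-KO libraries (adjusted p = 0.265). COL17A1, a hemidesmosome component of epithelia, had 0.145 to 0.416 and 0.731 to 0.984 FPKM (adjusted p = 0.0508).

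Of the 16 members with reads below the filter, COL3A1, COL20A1 and COL11A2 were higher in all MIR21-KO libraries than in all Ctrl libraries. The share of all genes below the filter that lay apart is not given here, so this has no background. Over the tested genes, 22.8% lay apart in this direction and 25.2% in the other. COL20A1, a little studied FACIT collagen, had 3, 12 and 7 reads in Ctrl and 34, 52 and 33 reads in MIR21-KO libraries, and COL11A2 had 1 to 2 and 3 to 5 reads. COL21A1, another FACIT collagen, showed the opposite with 69, 50 and 51 reads in Ctrl and 17, 19 and 17 reads in MIR21-KO libraries, or 0.527 to 0.766 and 0.176 to 0.219 FPKM. In the fit without a filter the log2 fold change of COL21A1 was -1.34 (limma, adjusted p = 0.0180), and that of COL20A1 was 1.29 (adjusted p = 0.0629). COL15A1 stayed between 0.168 and 0.430 FPKM, with overlapping groups. The remaining members with reads (COL4A3, COL4A4, COL5A3, COL6A3, COL8A2, COL9A2, COL9A3, COL14A1, COL24A1, COL26A1 and COL28A1) overlapped between the groups and did not exceed 0.265 FPKM in any library. Listed at 0 throughout were COL1A2, COL2A1, COL6A5, COL6A6, COL8A1, COL9A1, COL10A1, COL19A1, COL22A1, COL23A1 and COL25A1. If these 11 listed values are true counts of 0, a floor of 3 reads allows up to 0.0197 to 0.0778 FPKM, depending on gene and library and for counting error only. As mitochondrial genes that every cell uses were also listed at 0, a listed 0 does not show that a gene was absent.

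The FPKM of all 44 members summed to 260.0, 248.5 and 265.2 in Ctrl and to 552.0, 615.7 and 632.6 in MIR21-KO libraries. The mean sum was 2.33 times as high in MIR21-KO cells (257.9 ± 8.57 against 600.1 ± 42.5 FPKM, SD, n = 3 each). The groups did not overlap, and an exact two-sided permutation test gave p = 0.1, the smallest that 3 against 3 libraries allow. Type IV genes accounted for 105.0 ± 4.68 FPKM in Ctrl and 312.5 ± 33.1 FPKM in MIR21-KO cells, fibrillar genes for 76.4 ± 3.85 and 173.0 ± 18.5 FPKM, and the other genes for 76.6 ± 2.65 and 114.6 ± 10.7 FPKM. The share of type IV in the collagen sum was 41.7%, 40.1% and 40.3% in Ctrl and 49.9%, 52.5% and 53.6% in MIR21-KO libraries. That of the other collagens was 29.7% ± 1.28 and 19.2% ± 2.98, respectively. Both shares were separate between groups, with the smallest possible p = 0.1 by the exact permutation test, whereas the fibrillar share overlapped, with 29.6% ± 0.546 and 28.8% ± 1.25 (exact permutation p = 0.4, n = 3 each).

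**Figure D3:**
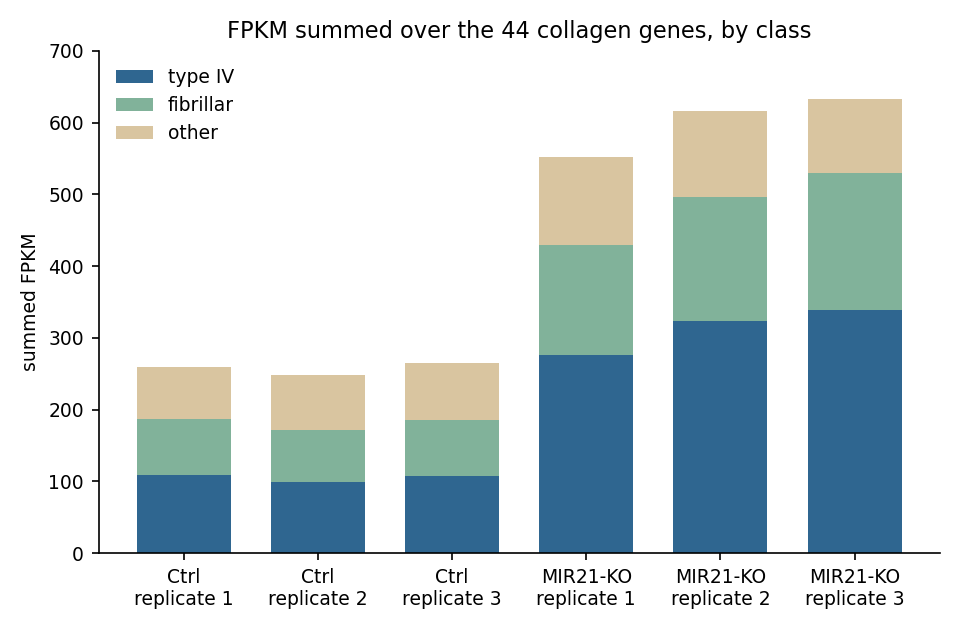
FPKM summed over the 44 collagen genes in each library, stacked by class (type IV, fibrillar, other). Bars reach 248.5 to 265.2 FPKM in the 3 Ctrl libraries and 552.0 to 632.6 FPKM in the 3 MIR21-KO libraries, and the type IV part is the largest in each.

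Chains that assemble into the same trimer were compared as ratios of FPKM within a library, in which library scaling cancels. Of the 8 pairs considered, 4 had both chains above the filter. COL4A1 to COL4A2 was 0.555, 0.498 and 0.533 in Ctrl and 0.822, 0.954 and 1.09 in MIR21-KO libraries, so COL4A1 stood at about the level of COL4A2 in MIR21-KO cells and well below it in Ctrl. On the log2 scale the ratio differed by 0.84. COL5A1 to COL5A2 was 1.26 ± 0.038 in Ctrl and 1.99 ± 0.152 in MIR21-KO cells (SD, n = 3 each), a log2 difference of 0.65. For COL4A5 to COL4A6 the ratio was 0.720 ± 0.018 and 0.866 ± 0.046, a log2 difference of 0.27. None of these 3 ratios overlapped between groups, and each gave an exact two-sided permutation p = 0.1, the smallest possible, or 0.133 after adjustment over 4 pairs. COL6A1 to COL6A2 was 1.46 ± 0.115 and 1.27 ± 0.092, with overlapping groups (exact permutation p = 0.2, n = 3 each).

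**Figure D4:**
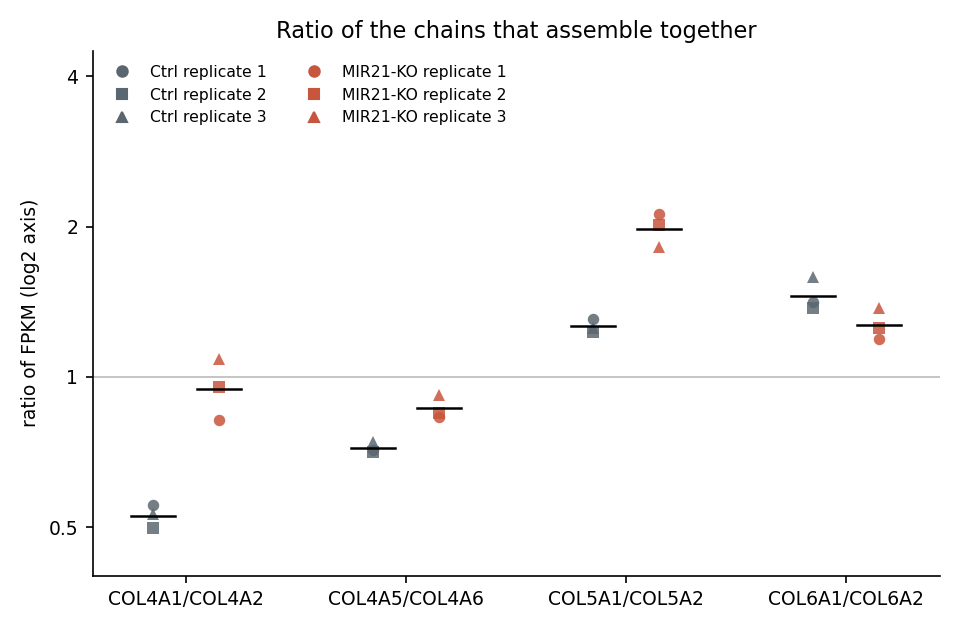
Ratio of the FPKM of partner chains (log2 axis) in each library, Ctrl in grey and MIR21-KO in red with 1 symbol per replicate, and black bars at the mean on the log2 scale (n = 3). COL4A1/COL4A2 lies between 0.498 and 0.555 in Ctrl and between 0.822 and 1.09 in MIR21-KO libraries, whereas the groups overlap for COL6A1/COL6A2.

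Next, the longest annotated 3' UTR of each gene was searched for matches to miRNA seeds. A match to the miR-21-5p seed (7mer or 8mer) was present in 1 of the 17 tested members, against 9.89% of 11650 tested protein-coding genes with a 3' UTR, and no tested member held an 8mer. The 1 member was COL12A1, the tested collagen gene of negative sign. Its site, with the match to miRNA bases 2 to 8 in capitals, starts at base 459 of a 3' UTR of 2224 bases.
COL12A1, miR-21-5p site: acaattctacaATAAGCTtctgcatcaaa
In contrast, 10 tested members held a miR-29 match, against 16.8% of genes, and 7 of them held an 8mer, against 3.48%. Such an 8mer was found in COL1A1, COL4A2, COL4A5, COL4A6, COL5A1, COL5A2 and COL7A1. The sites of 4 of these genes that rose are shown, where capitals mark the match to miRNA bases 2 to 8 and the A that follows it.
COL4A2, miR-29 site at base 3816 of 4606: tctcttccctgTGGTGCTActgtaacagc
COL4A5, miR-29 site at base 109 of 1170: gctgccgtcaaTGGTGCTActatatatga
COL4A6, miR-29 site at base 225 of 1396: ttctgtcaagcTGGTGCTActgtttgatt
COL5A1, first miR-29 8mer, at base 1082 of 2543: tggctctcttgTGGTGCTAtctatctgtt
The median log2 fold change was 0.87 for the 10 tested members with a miR-29 match and 0.82 for the 7 without, of which 6 and 3 rose, respectively. COL4A1, the member with the largest rise, held no match to bases 2 to 8 of any of the 3 seeds. Matches to fewer bases of a seed were not counted. A let-7 match was present in 4 tested members (COL1A1, COL4A6, COL5A2 and COL27A1), against 11.1% of genes. The median log2 fold change was 0.53 for these 4 and 0.87 for the 13 without, of which 2 and 7 rose, respectively. As matches were counted by letters alone, they do not show that a site is used.

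Genes that make, modify, bind or degrade collagen were grouped in 7 lists with 82 genes, of which 54 were tested. Of these, 21 rose and 1 fell, with a median log2 fold change of 0.44, beside 7.66% higher and 8.38% lower over all tested genes. Without any 1 of the Ctrl libraries or without MIR21-KO replicate 2, 12 genes passed the limma test as higher and 0 as lower, in fits that called 2.42% to 3.26% of all tested genes higher. MMP2, ADAMTS14, ITGA10 and MMP14 passed the filter only through their level in MIR21-KO cells, so each had to be higher there. Of these, MMP2 and ADAMTS14 were called, whereas ITGA10 and MMP14 were not. The calls of P4HA3, CREB3L1, BMP1, ADAMTS14, PCOLCE2, LOXL2, FN1, ITGA11, MRC2, ADGRG1 and MMP2 (11 of 22) were kept under each alternative, whereas the other 11 calls in these lists were lost in at least 1 of them. Among the enzymes and chaperones of chain folding and hydroxylation, 4 of 18 tested genes rose and 1 fell. P4HA3, a catalytic subunit of prolyl 4-hydroxylase, was at 5.00, 4.64 and 5.60 FPKM in Ctrl and 29.1, 28.3 and 28.5 FPKM in MIR21-KO libraries (log2 2.48 ± 0.088, adjusted p = 2.5e-05). This was far outside the Ctrl range. FKBP10, a procollagen chaperone, rose by 0.78 and P3H3, a prolyl 3-hydroxylase family member, by 0.64 on the log2 scale. TMEM38B, a cation channel of the endoplasmic reticulum needed for collagen synthesis in bone, fell from 5.18 ± 0.550 to 2.40 ± 0.304 FPKM (log2 -1.08, adjusted p = 0.00201). The collagen chaperone SERPINH1 had a log2 fold change of 0.43 and the lysyl hydroxylase PLOD2 of 0.36, neither of them called.

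In the export list 1 of 5 tested genes rose. CREB3L1, a transcription factor that activates collagen and secretory pathway genes, was at 1.15, 1.15 and 0.887 FPKM in Ctrl and 4.67, 5.56 and 4.93 FPKM in MIR21-KO libraries (log2 2.15 ± 0.149, adjusted p = 0.000207). Of the genes for propeptide cleavage and cross-linking, 4 of 7 tested rose. BMP1, the procollagen C-proteinase, rose from 15.2 ± 0.547 to 33.0 ± 0.894 FPKM, and PCOLCE2, its enhancer, from 5.97 ± 0.707 to 14.0 ± 0.934 FPKM. ADAMTS14, a procollagen N-proteinase, was called as well, but rests on few Ctrl reads, with 0.0298 to 0.0882 FPKM in Ctrl and 1.83 to 2.42 FPKM in MIR21-KO libraries. The lysyl oxidase LOXL2 was the 4th (log2 0.92 ± 0.076, adjusted p = 0.000381). Below the filter, TLL1 had 46, 34 and 20 reads in Ctrl and was listed at 0 in each MIR21-KO library. Its log2 fold change without a filter was -2.16 (limma, adjusted p = 0.0132). LOXL1, also below the filter, went the other way, with 4, 9 and 5 reads in Ctrl and 27, 16 and 11 in MIR21-KO libraries.

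Of 4 tested fibril regulators, 2 rose. FN1, which encodes fibronectin, was at 22.8, 17.0 and 20.6 FPKM in Ctrl and at 163.8, 187.7 and 235.5 FPKM in MIR21-KO libraries (log2 3.27 ± 0.164, adjusted p = 7.68e-05). SPARC, a collagen-binding matricellular protein, rose by 1.02 on the log2 scale. In the list of collagen receptors, 4 of 7 tested genes rose. They were ITGA11, an integrin subunit for fibrillar collagen, with 1.76 ± 0.135 FPKM in Ctrl and 7.90 ± 1.07 FPKM in MIR21-KO cells, the endocytic receptor MRC2 (log2 1.15), the adhesion receptor ADGRG1 (0.88) and the tyrosine kinase DDR1 (0.65). ITGA2 and ITGB1, which together form an epithelial collagen receptor, had log2 fold changes of 0.76 and 0.17 and were not called by limma. All MIR21-KO values of ITGA2 were above all Ctrl values, and voom called it higher (adjusted p = 0.00634). The groups overlapped for ITGB1.

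Collagen degradation also contained 4 called genes, of 6 tested. Of the 6, MMP2 and MMP14 passed the filter only through MIR21-KO cells, so both had to be higher there. MMP2, a gelatinase that cleaves type IV collagen, was at 0.526, 0.434 and 0.356 FPKM in Ctrl and at 18.7, 19.1 and 17.9 FPKM in MIR21-KO libraries (log2 5.13 ± 0.141, adjusted p = 1.01e-05), the largest value in the 7 lists. The cathepsins CTSK and CTSL rose by 1.12 and 0.69 on the log2 scale. Of the 7 tested protein partners of type IV collagen in the basement membrane, 2 rose, with a list median of 0.16 and 3 negative values. NID1, which links laminin to type IV collagen, rose from 3.44 ± 0.236 to 8.90 ± 1.95 FPKM, and LAMB1 from 37.1 ± 0.387 to 50.7 ± 2.95 FPKM. NID2 had a log2 fold change of -0.68, LAMC1 of -0.39 and the perlecan gene HSPG2 of -0.17, none of them called by limma. All MIR21-KO values of NID2 and of LAMC1 were below all Ctrl values, and voom called NID2 lower (adjusted p = 0.00368).

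**Figure D5:**
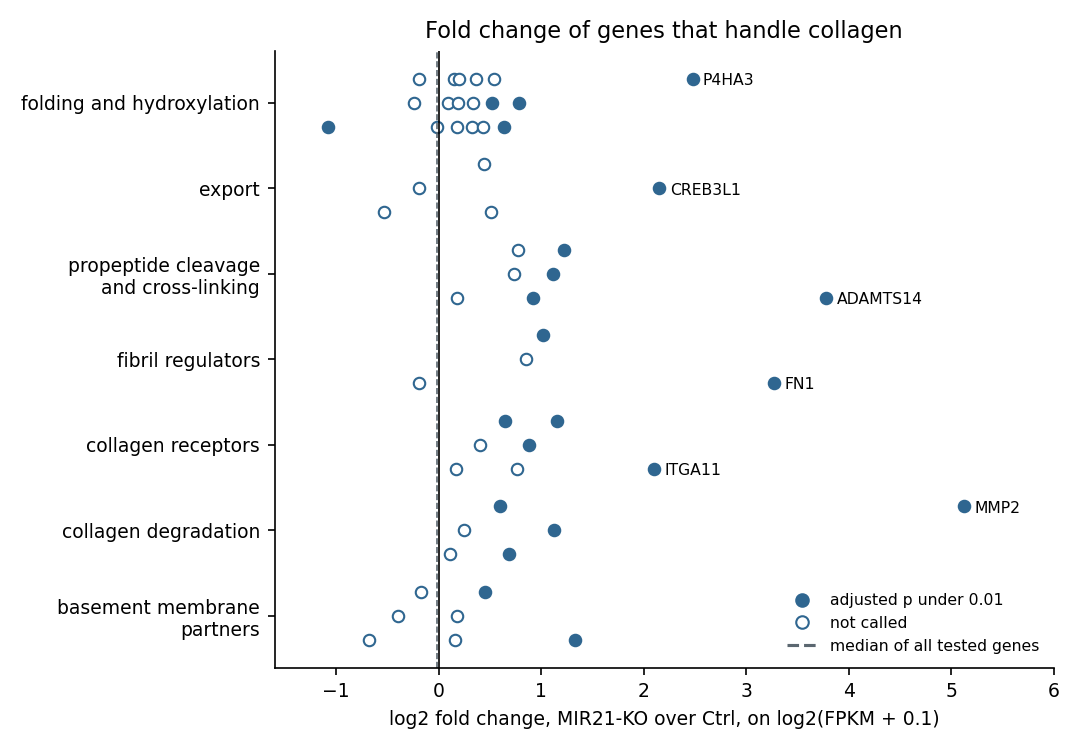
Log2 fold change (MIR21-KO over Ctrl) of the 54 tested genes of 7 collagen-related lists, with filled points for an adjusted p under 0.01 by limma and open points for genes not called. Points are spread vertically within a list only to keep them apart, and the 6 genes above 2 are named, with MMP2 at 5.13.

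Markers of the cell types that the cultures could hold were examined beside these results. All 6 epithelial markers were expressed and summed to 1684 to 1807 FPKM in Ctrl and 1217 to 1745 FPKM in MIR21-KO libraries. CDH1 (E-cadherin) fell from 8.18 ± 0.584 to 2.86 ± 0.148 FPKM (log2 -1.48, limma adjusted p = 0.000175). The keratin KRT18 was not called by limma (log2 -0.69, adjusted p = 0.0153). All its MIR21-KO values were below all Ctrl values, and voom called it lower (adjusted p = 0.00277). The other epithelial markers were not called, with log2 fold changes of 0.10 for KRT7, 0.29 for KRT19, -0.23 for KRT8 and -0.68 for EPCAM. Only ABCA3 and NAPSA of 9 alveolar type II markers passed the filter, and SFTPA1 and NKX2-1 were listed at 0. Of 8 fibroblast markers 2 passed the filter, and the list summed to 4.45 to 4.85 FPKM in Ctrl and 9.35 to 10.4 FPKM in MIR21-KO libraries. THY1 rose from 2.28 ± 0.212 to 7.15 ± 1.16 FPKM, LUM was not called, DCN and PDGFRA did not exceed 0.0978 FPKM, and COL1A2, which fibroblasts express strongly, was listed at 0. FAP was listed at 0 in each Ctrl library and had 0.430, 0.467 and 0.605 FPKM in MIR21-KO libraries, below the filter (adjusted p = 0.0034 by limma without a filter). PDGFRB had 1 to 3 reads in Ctrl and 8 to 15 reads in MIR21-KO libraries, also without overlap. Endothelial markers summed to at most 0.0855 FPKM and leukocyte markers to 3.32 to 5.38 FPKM, most of it CD14. The part of these marker levels in the collagen results was not tested.

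The tested members were long genes rich in G and C, with a median length of 8706 bases and a median GC content of 60.3%, compared with 3857 bases and 48.7% over all tested genes. When the trends on GC content and length were taken out of each library, 10 members were called higher and none lower. Over all tested genes this fit called 1818 higher (11.4%) and 2136 lower, instead of 1226 and 1342. The 10 were the 9 genes that rose on the deposited values and COL16A1.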

How the data were processed

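PolyA-selected, strand-specific RNA-seq libraries of A549 cells (3 Ctrl, 3 MIR21-KO) were analysed. Groups and replicate numbers were taken from sample titles. The authors deposited 1 table of 58174 genes with gene lengths and FPKM per library. The submitters' processing notes name hg38, cutadapt 1.14, HISAT2 2.1.0, SAMtools 1.5, featureCounts 1.5.3 and edgeR 3.18.1, without parameters or order. The table also holds 3 columns with the authors' own log2 fold changes, p-values and FDRs, which were not used. Deposited FPKM values times gene length were whole multiples of 1 step per library for 100% of values (tolerance 0.01), which gave the reads behind each value. All 37 mitochondrial genes were listed at 0, so a listed 0 can stem from upstream processing.

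Genes that averaged 0.5 FPKM or more entered limma 3.58.1 as log2(FPKM + 0.1) (eBayes with trend and robust fitting, two-sided, no covariate) in R 4.3.3. Benjamini-Hochberg adjustment was made over all 16006 tested genes, with calls at an adjusted p under 0.01, the threshold of the study. Ratios and sums were compared by exact permutation tests over libraries (scipy 1.17.1). Gene coordinates and 3' UTRs were from GENCODE 29, which matched 57836 genes (99.42%). Promoter windows and miRNAs were from RefSeq. Members of at least 0.5 FPKM are named with their values, as are at most 3 called genes per direction in each other list. LOXL2, DDR1 and the list genes that were not called or lay below the filter (such as SERPINH1, ITGA2, NID2 and TLL1) were picked after their values were seen. The members and lists were chosen with earlier results of these data known. Scripts were tested on simulated data. Python 3.11.15 with matplotlib 3.10.9 drew the figures.

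Alternatives comprised other pseudocounts, filters, scalings and thresholds, protein-coding genes only, eBayes without trend or robust fitting, voom on recovered reads, removal of GC and length trends, a replicate block, and leaving out each library.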

Additional observations from a re-analysis of the deposited data

How the results depend on the processing

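Of the collagen genes, 9 were called higher on the deposited values and 5 to 11 when 1 library was left out (5 without MIR21-KO replicate 2, 11 without MIR21-KO replicate 3). None was called lower by limma, 0 to 1 with 1 library left out, 1 at an adjusted p under 0.05 and 1 with voom, in each case COL12A1. COL4A1, COL4A2, COL4A5, COL4A6 and COL5A1 were called higher under each of 20 alternatives. Of the genes in the 7 pathway lists, 21 were called higher and 1 lower. The number called higher ranged from 12 to 24 with 1 library left out (24 without MIR21-KO replicate 3, 12 without any 1 of the Ctrl libraries or MIR21-KO replicate 2). The number called lower ranged from 0 to 4 with 1 library left out, and was 3 at an adjusted p under 0.05, 2 with protein-coding genes only, 2 with voom and 4 after removal of GC and length trends. Over all tested genes, 1342 were called lower on the deposited values and 368 to 1801 with 1 library left out. There were 2686 at an adjusted p under 0.05, 1723 with protein-coding genes only, 1818 with voom and 2136 after removal of the trends. The log2 fold change of COL27A1 turned from 0.05 to -0.077 after removal of GC and length trends, alone (-0.077) or combined with the replicate block (-0.077). With 1 library left out it ranged from -0.079 to 0.18. The cause of these shifts was not tested. Ratios and sums kept their direction under each alternative tried. Where groups did not overlap, leaving out a library could not reverse the direction, and library scaling cancels in the ratios.

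Deviations of same-numbered libraries gave no sign of pairing (correlations of -0.17, -0.02 and -0.02), and the labels do not say whether a number marks a shared culture or day. With the replicate block, 6 collagen genes were called higher (COL4A1, COL4A2, COL4A5, COL4A6, COL5A1 and COL6A2) and 0 lower, and 12 pathway list genes higher and 0 lower, while calls over all genes went from 2568 to 651.

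With 3 libraries per group, permutation tests could not go below 0.1. Reads limit the 27 members below the filter, whose differences rest on at most 69 reads in a library.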
